A study of Mus musculus with 6 samples.

Results

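Among the Maf peaks of adult mouse skeletal muscle, 1554 lay in an intron of a protein-coding gene, more than 1 kb from any start of a protein-coding transcript, and overlapped a region of H3K27ac. They made up 28.4% of the 5467 peaks in the list of Maf replicate 2. The peaks were chosen by measured values, namely by the Maf peak calls of replicate 2 and by the H3K27ac regions. A peak was taken when no base of it lay within 1 kb of a protein-coding transcript start, when its centre lay inside a protein-coding gene but in no exon, and when it shared at least 1 base with an H3K27ac region of either replicate. Both marks were mapped by ChIP-seq, which sequences the DNA pulled down with an antibody, in nuclei of gastrocnemius and quadriceps from wild-type C57BL/6N mice aged 2 months. The series has 2 Maf samples, 2 H3K27ac samples and 2 inputs, with no other genotype or treatment, described in the labels as biological replicates. The inputs were not used here. The labels do not say how many mice were pooled in a sample, and whole muscle holds fast and slow fibers beside endothelial, connective tissue and immune cells.

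Maf is a large bZIP transcription factor. Factors of this family bind as dimers to a palindromic Maf recognition element, or to a half-site next to an AT-rich stretch, and the core of the palindrome is the site that AP-1 also binds. H3K27ac is an acetylation of histone H3 that marks active promoters and active enhancers, and many enhancers of muscle genes lie in introns. E-boxes are bound by the myogenic bHLH factors such as MyoD, and Mef2 sites by the Mef2 factors, which work with them.

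The 4 peak lists had been called in each sample separately. The Maf list of replicate 1 held only 74 peaks, so the positions described here come from 1 Maf sample. The lists hold positions with no read counts, the score is 1 in every row, and read depth is therefore unknown. The position in the list of Maf replicate 2 was used as a stand-in for the strength of a peak, although the list does not state that it is sorted by strength. Peaks and genes are not replicates. All intervals are 95% intervals over the regions or genes of these lists, exact Clopper-Pearson for shares and Newcombe for differences, and they cover counting error only. As a check of the tissue, starts with H3K27ac at most 1 kb away belonged to 16 of 16 genes of the fast sarcomere and to 0 of 14 liver genes. The same was seen for 13 of 13 endothelial genes and 12 of 12 fibro-adipogenic and tendon genes. It was also seen for 11 of 12 macrophage genes and 9 of 10 satellite cell genes. Over all protein-coding genes it was 12821 of 21911, or 58.5%. The part of these other cells in any H3K27ac region was not tested.

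The highest peaks in the list carried Maf half-sites close to their centres. Of the first 15 peaks of the group, 12 held the half-site TGCTGAC within 100 bp of the centre. Their sites are shown because they are the best placed in the Maf list. Each line gives 61 bases of the RefSeq sequence of GRCm38 around the TGCTGAC nearest to the centre, 5′ to 3′ on the strand that reads TGCTGAC, with that half-site in capitals.
Arid1b (chr17:5189899-5189959, plus strand): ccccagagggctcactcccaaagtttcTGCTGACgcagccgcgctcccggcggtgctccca
Fgf20 (chr8:40296854-40296914, minus strand): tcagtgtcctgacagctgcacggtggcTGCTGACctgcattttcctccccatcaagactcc
Bach2 (chr4:32531580-32531640, plus strand): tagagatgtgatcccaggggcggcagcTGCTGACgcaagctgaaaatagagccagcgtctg
Sox6 (chr7:115512027-115512087, plus strand): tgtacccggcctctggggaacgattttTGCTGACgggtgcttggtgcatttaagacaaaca
Tacc2 (chr7:130681989-130682049, minus strand): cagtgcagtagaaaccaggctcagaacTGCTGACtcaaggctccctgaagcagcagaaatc
Jph2 (chr2:163353737-163353797, plus strand): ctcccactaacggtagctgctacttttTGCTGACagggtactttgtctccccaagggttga
Slc8a3 (chr12:81245233-81245293, minus strand): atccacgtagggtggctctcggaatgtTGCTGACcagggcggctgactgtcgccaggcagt
Mast4 (chr13:102949192-102949252, minus strand): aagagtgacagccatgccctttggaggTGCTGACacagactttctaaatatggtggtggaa
Lrrc49 (chr9:60664636-60664696, minus strand): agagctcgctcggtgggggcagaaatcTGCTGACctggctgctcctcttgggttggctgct
Tmod1 (chr4:46088000-46088060, plus strand): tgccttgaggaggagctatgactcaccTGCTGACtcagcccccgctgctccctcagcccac
Aunip (chr4:134517111-134517171, minus strand): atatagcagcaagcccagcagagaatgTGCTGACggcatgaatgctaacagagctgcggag
Rcsd1 (chr1:165667546-165667606, plus strand): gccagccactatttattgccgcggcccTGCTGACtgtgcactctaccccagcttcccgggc
The bases after the half-site differed from line to line. In Tmod1 the half-site ran on into a full Maf recognition element with 1 mismatch, and in Arid1b and Rcsd1 into one with 2 mismatches. Tmod1 encodes tropomodulin, which caps the pointed ends of thin filaments, and Arid1b encodes a subunit of the BAF chromatin remodelling complex.

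Another set is shown because its peaks were called in both Maf lists, outside the first 15, and hold TGCTGAC or a full Maf recognition element. Of the 15 peaks called in both lists outside the first 15, these are the 8 with TGCTGAC or a full Maf recognition element within 100 bp of the centre. The other 7, in Zhx2, Kif6, Pfkfb3, Pkdcc, Vasn, Jph1 and Frs2, held neither. Those in Zhx2, Kif6, Pfkfb3 and Pkdcc did hold the shorter half-site core TGCTGA within 100 bp of the centre. The lines of St6galnac4, Ghr, Chd2, Pex10 and Limch1 again have TGCTGAC in capitals. Those of Sirt2, Pitpna and Exd2 have no TGCTGAC within 100 bp of the centre, and their capitals mark a full Maf recognition element with 2 mismatches, read on the plus strand.
St6galnac4 (chr2:32590412-32590472, minus strand): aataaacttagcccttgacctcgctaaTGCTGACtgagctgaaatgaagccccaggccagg
Ghr (chr15:3464880-3464940, plus strand): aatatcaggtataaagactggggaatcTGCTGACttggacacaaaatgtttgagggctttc
Chd2 (chr7:73521914-73521974, plus strand): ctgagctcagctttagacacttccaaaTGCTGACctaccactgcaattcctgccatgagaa
Pex10 (chr4:155071205-155071265, minus strand): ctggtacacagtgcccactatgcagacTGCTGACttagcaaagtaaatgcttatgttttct
Limch1 (chr5:66761058-66761118, plus strand): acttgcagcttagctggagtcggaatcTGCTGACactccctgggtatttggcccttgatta
Sirt2 (chr7:28781024-28781084, plus strand): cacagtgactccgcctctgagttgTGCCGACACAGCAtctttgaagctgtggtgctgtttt
Pitpna (chr11:75595955-75596015, plus strand): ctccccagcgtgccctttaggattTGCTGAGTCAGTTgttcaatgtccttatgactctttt
Exd2 (chr12:80472100-80472160, plus strand): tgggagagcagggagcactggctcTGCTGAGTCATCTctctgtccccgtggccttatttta
In Sirt2, the gene of a deacetylase, the element lay exactly at the centre of the peak. In Exd2 and Pitpna it lay 2 bp and 4 bp from the centre.

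Entire peaks of 281 bp are shown for 2 of these genes, chosen after their matches were seen, since each holds several copies of 1 motif. Capitals mark the half-site core TGCTGA on either strand and the Mef2 site.
Jph2 (chr2:163353661-163353941, plus strand): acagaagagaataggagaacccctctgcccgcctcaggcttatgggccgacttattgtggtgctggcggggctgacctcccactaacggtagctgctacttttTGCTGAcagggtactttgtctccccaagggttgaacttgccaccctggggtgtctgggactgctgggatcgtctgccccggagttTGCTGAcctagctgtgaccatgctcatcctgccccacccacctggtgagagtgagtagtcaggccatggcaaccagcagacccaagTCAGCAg
Exd2 (chr12:80471992-80472272, plus strand): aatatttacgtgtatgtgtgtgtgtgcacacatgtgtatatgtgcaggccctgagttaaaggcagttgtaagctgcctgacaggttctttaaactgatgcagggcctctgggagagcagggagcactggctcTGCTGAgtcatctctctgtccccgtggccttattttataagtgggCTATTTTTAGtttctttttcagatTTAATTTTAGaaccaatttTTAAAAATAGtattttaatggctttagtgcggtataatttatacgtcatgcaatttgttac
The peak of Jph2 held TGCTGAC 3 times, and that of Exd2 held 3 Mef2 sites beside 1 half-site core. Jph2 encodes a junctophilin, which tethers the sarcoplasmic reticulum to the plasma membrane.

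Maf half-sites and the full Maf recognition element were more frequent in the marked intronic peaks than in the sequence beside them. Short motifs match more often by their length alone, so the shares of these motifs are not ranked against each other. In 200 bp around the peak centre, TGCTGAC was found on either strand in 429 of 1554 peaks, or 27.6% (25.4 to 29.9). In windows of the same length 1 kb to either side it was found in 103 of 3108, or 3.31% (2.71 to 4.00). The shorter core TGCTGA, which is part of TGCTGAC, was found in 57.4% of the peaks and in 14.8% of the windows beside them. The full Maf recognition element, allowed 2 mismatches, was found in 15.1% of the peaks and in 0.804% of the windows beside them. Without mismatches it contains both the core and the AP-1 site, so these matches can overlap. A match with mismatches need not hold either, as in Sirt2. Only 4 peaks held the full element with no mismatch and 42 held it with 1 at best, while 189 held it with 2. Neither TGCTGA, nor the full element, nor the AP-1 site, searched as TGACTCA and as its other form with a central G, was found in 564 peaks, or 36.3%. A match is a description of the letters and not a test of binding.

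**Figure D1:**
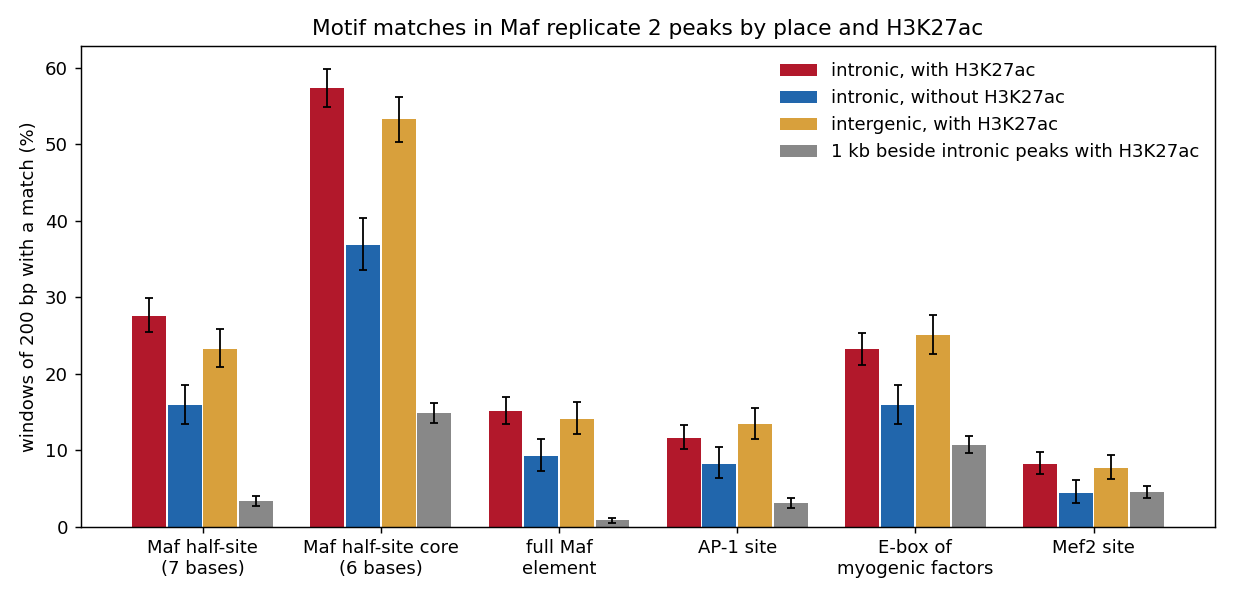
Share of 200 bp windows with a match to 6 motifs (%), for intronic Maf peaks with H3K27ac, intronic peaks without it, intergenic peaks with it, and windows 1 kb beside the first group. Bars start at 0 and lines are 95% Clopper-Pearson intervals. The half-site of 7 bases was in 27.6% of the marked intronic peaks, 15.8% of the unmarked ones and 3.31% of the windows beside.

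The half-sites were centred on the peaks. In the 429 peaks with TGCTGAC, the median distance of the nearest one to the centre was 19.5 bp, and in 82.8% of them it lay within 50 bp. For CAGCTG the median distance was 43.0 bp over 360 peaks and for the Mef2 site 44.0 bp over 128 peaks. The half-sites thus stood nearer to the centre than E-boxes and Mef2 sites. Of the peaks with TGCTGAC, 396 held it 1 time, 31 held it 2 times and 2 held it more often. It lay on the strand of the host gene in 49.6% (44.7 to 54.6) of 409 peaks that held it on 1 strand only.

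**Figure D2:**
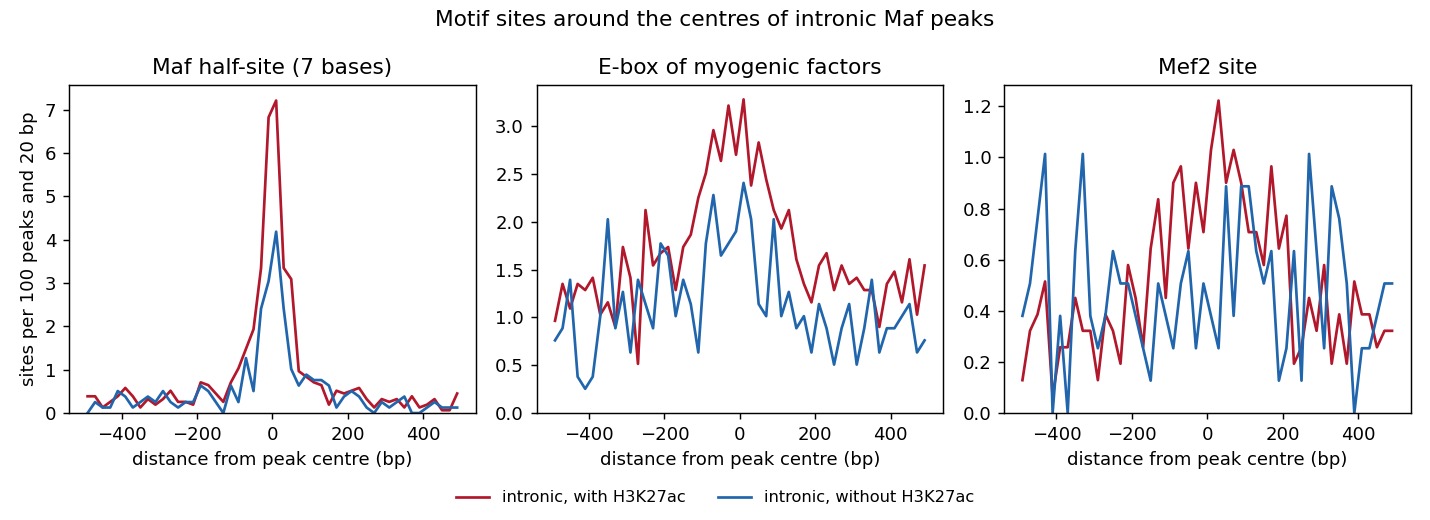
Sites per 100 peaks in bins of 20 bp (vertical axes, each with its own scale) against the distance from the peak centre in bp, for intronic Maf peaks with and without H3K27ac. The 7-base half-site forms a narrow peak at the centre in both groups and the E-box a broad one. Within 100 bp of the centre, only 35 unmarked peaks held a Mef2 site.

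The bases beside the half-site core were not evenly used. Positions were counted from the core on the strand that reads TGCTGA, over 1101 cores in the marked intronic peaks and 505 cores in the windows beside them. At the base after the core, C was found in 42.2% of the cores in peaks and in 20.8% of those beside, and T or A in 21.3% and 40.2%. At positions -3 and -2, counted back from the core, A or T was found in 64.2% and 63.4% of the cores in peaks, against 51.1% and 50.7% of those beside. At positions -6, -5, -4 and -1, A or T was found in 48.8%, 48.2%, 52.6% and 37.9% of the cores in peaks. Beside them it was 58.2%, 49.1%, 53.5% and 46.1%, so A or T was not enriched at these positions. An AT-rich stretch before the half-site is a known feature of the sites of large Maf proteins. In the 348 cores of the unmarked intronic peaks, positions -3 and -2 held A or T in 66.1% and 63.8%. These shares were close to the values in the marked peaks.

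Marked intronic peaks carried Maf half-sites more often than intronic Maf peaks without H3K27ac, of which there were 789. TGCTGAC was found in 27.6% of the marked and in 15.8% of the unmarked peaks, a difference of 11.8 percentage points (8.29 to 15.1). For the core TGCTGA the difference was 20.5 points (16.3 to 24.6), and for the full element it was 5.87 points (3.07 to 8.48). CAGCTG was found in 23.2% of the marked and 15.8% of the unmarked peaks, a difference of 7.32 points (3.94 to 10.5), against 10.7% of the windows beside the marked peaks. The Mef2 site was found in 8.24% of the marked and 4.44% of the unmarked peaks, a difference of 3.80 points (1.70 to 5.72). Another E-box, CACCTG, was found in 12.5% of the marked and 12.8% of the unmarked peaks, and the interval of the difference (-3.21 to 2.51) held 0. Of 21 motifs, 9 had an interval above 0 in this comparison and 0 had one below. The intervals were not adjusted for the number of motifs.

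Among peaks of more similar position in the Maf list the difference was smaller. The median list percentile, where 0 is the top, was 37.6 for the marked peaks and 76.4 for the unmarked ones. The list was therefore cut into 3 equal parts, within which positions were not fully alike. In the uppermost of 10 equal parts of the list, 209 of 214 distal intronic peaks were marked, against 207 of 237 in the next. In the upper of the 3 parts, TGCTGAC was found in 34.8% of 682 marked and 33.3% of 81 unmarked peaks. That is a difference of 1.42 points (-9.94 to 11.4). In the middle part it was found in 24.4% of 585 marked and 23.4% of 197 unmarked peaks, a difference of 1.09 points (-6.10 to 7.58). In the lower part it was found in 17.1% of 287 marked and 10.2% of 511 unmarked peaks, a difference of 6.90 points (2.01 to 12.2). The core behaved likewise, with differences of -1.02, -1.002 and 15.8 points from the upper to the lower part, of which only the last had an interval without 0 (9.01 to 22.6). For CAGCTG the sign turned in the upper part, with 25.2% of the marked and 35.8% of the unmarked peaks, a difference of -10.6 points (-21.9 to -0.421) that rests on only 81 unmarked peaks.

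**Figure D3:**
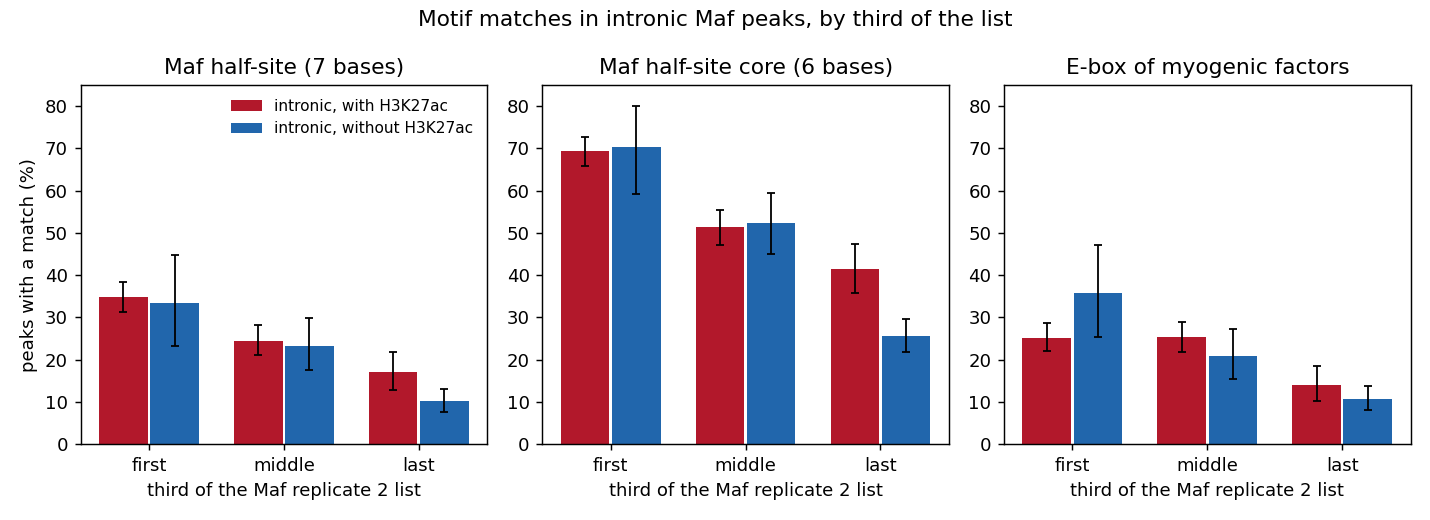
Share of intronic Maf peaks with a match (%) in the first, middle and last of 3 equal parts of the Maf replicate 2 list, with H3K27ac beside without it. Lines are 95% Clopper-Pearson intervals. The 7-base half-site was in 34.8% against 33.3% of the peaks in the first part and in 17.1% against 10.2% in the last.

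Marked peaks in introns and between genes differed in few of the motifs. Against the 1117 intergenic Maf peaks with H3K27ac, TGCTGAC was more frequent in the intronic ones by 4.33 points (27.6% and 23.3%, interval 0.971 to 7.63) and TGCTGA by 4.13 points (0.313 to 7.95). The interval for TGCTGAC held 0 when both H3K27ac replicates were required (3.39 points, -0.158 to 6.88), and in the upper (-2.86 to 8.06) and lower (-4.76 to 8.14) parts of the list, but not in the middle part (7.29 points, 2.13 to 12.2). CACGTG, the E-box of clock and Myc factors, was less frequent, in 1.99% of the intronic and 3.31% of the intergenic peaks (difference -1.32 points, -2.67 to -0.0983). For the other 18 motifs the interval held 0. That includes CAGCTG, at 23.2% and 25.1% (difference -1.90, -5.22 to 1.37), and the Mef2 site, at 8.24% and 7.70% (difference 0.538, -1.59 to 2.58). The Sp1 box GGGCGG, common in promoters, was found in 5.34% of the marked intronic peaks and in 42.5% of the 969 marked promoter peaks. The half-site for nuclear receptors, AGGTCA, was found in 18.2% of the marked intronic peaks, 18.1% of the marked intergenic peaks and 13.4% of both the unmarked intronic peaks and the windows beside. Over all 5466 peaks of the list on the main chromosomes, TGCTGAC was found in 21.0%, CAGCTG in 19.5% and the Mef2 site in 5.69%.

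In the marked intronic peaks, the intervals for the E-box CAGCTG overlapped between peaks with and without the half-site core, and in the unmarked ones they did not. CAGCTG was found in 24.1% (21.3 to 27.05) of the 892 marked peaks with TGCTGA and in 21.9% (18.8 to 25.3) of the 662 without it. In the unmarked intronic peaks it was found in 23.7% (18.9 to 29.0) of 291 with TGCTGA and in 11.2% (8.61 to 14.4) of 498 without. List position was not held equal here. From the upper to the lower part of the list, TGCTGA was found in 70.4%, 52.3% and 25.6% of the unmarked peaks. CAGCTG was found in 35.8%, 20.8% and 10.8% of them. In the marked peaks TGCTGA was found in 69.4%, 51.3% and 41.5%, and CAGCTG in 25.2%, 25.3% and 13.9%. Whether the motifs go together within a part of the list was not tested. The Mef2 site was found in 6.61% (5.07 to 8.45) of the marked peaks with TGCTGA and in 10.4% (8.20 to 13.005) of those without. Both TGCTGA and CAGCTG stood in 215 marked peaks, and both TGCTGA and a Mef2 site in 59.

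The share of peaks with a half-site fell along the list within the marked intronic peaks themselves. With the list cut into 10 equal parts, 99 of 209 marked peaks, or 47.4% (40.4 to 54.4), held TGCTGAC in the uppermost part, and 11 of 84, or 13.1% (6.72 to 22.2), held it in the lowest. The core TGCTGA was found in 79.4% of the marked peaks of the uppermost part and in 38.1% of those of the lowest. The share of distal intronic peaks that overlapped H3K27ac, which the choice of the peaks used, was 97.7% in the uppermost part and 33.3% in the lowest. Over the whole list it was 66.3%, beside 59.7% for intergenic and 95.1% for promoter peaks. CAGCTG was found in 27.8% (21.8 to 34.3) of the marked peaks of the uppermost part and 15.5% (8.51 to 25.01) of those of the lowest. These intervals overlap, but no interval of the difference was computed. With the list cut into 3 equal parts, CAGCTG was found in 25.2%, 25.3% and 13.9% of the marked peaks from the upper to the lower part.

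**Figure D4:**
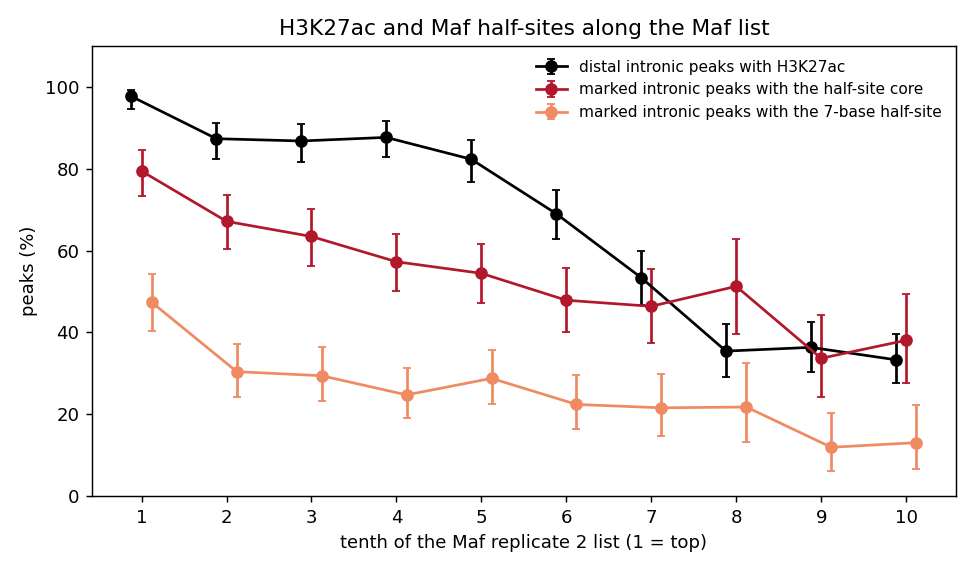
Shares (%) along the Maf replicate 2 list in 10 equal parts from the top, for distal intronic peaks that overlap H3K27ac and, among those that do, for peaks with the half-site core and with the 7-base half-site. Lines are 95% Clopper-Pearson intervals. The 7-base half-site was in 47.4% of the marked peaks of the uppermost part and in 13.1% of the last.

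The peaks lay mostly inside their H3K27ac regions. The choice required an overlap, and a peak of 281 bp that touches a much longer region mostly lies inside it by length alone. The share expected from the lengths was not computed. The entire peak lay inside 1 region of at least 1 replicate for 1466 of 1554 peaks, and 1387, or 89.3%, were marked in both H3K27ac replicates, against 81 in replicate 1 only and 86 in replicate 2 only. With both replicates merged, the region around a marked intronic peak had a median length of 3232 bp, while it was 2471 bp around a marked intergenic peak and 1446 bp over all 52531 merged regions. Longer regions overlap more peaks by their length alone. With each region cut into 5 equal parts, the centre fell in the middle part for 35.5% of the peaks, and in the outer parts for 9.14% and 10.2%. The region reached within 1 kb of a start of the host gene for 258 peaks, or 16.6%, so most of these regions were separate from the promoter of the gene. Of 22331 merged regions that were themselves distal and intronic, 5.64% held a Maf peak, with 1.38% of those under 1 kb and 24.9% of those of 5 kb or more.

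Only a few regions held more than 1 of the peaks. Of 1491 regions, 56 held 2 or more. The region of 60519 bp over Speg, a kinase of the triad, and that of 38628 bp in Rbfox1, a splicing factor of muscle and neurons, held 4 each. Jph2 had 3 peaks in a region of 61995 bp, Ampd1 had 3 in 19270 bp and Ppp1r12b had 3 in 19360 bp. Ampd1 encodes muscle AMP deaminase and Ppp1r12b a regulatory subunit of myosin phosphatase. Another of the peaks lay within 5 kb for 87 peaks, or 5.60%.

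First introns held more of the marked than of the unmarked intronic peaks. Taken in the longest protein-coding transcript that holds the centre, 545 of 1534 marked peaks, or 35.5%, lay in the first intron, against 202 of 772 unmarked peaks, or 26.2%, a difference of 9.36 points (5.38 to 13.2). First introns made up 25.6% of all distal intronic bases and 41.9% of the distal intronic bases in H3K27ac regions. The share in marked peaks thus stood above that of all intronic bases and below that of acetylated intronic bases. The start of that transcript was a median of 38172 bp away for the marked peaks and 59444 bp for the unmarked ones. The nearest protein-coding start was one of the host gene for 83.7% of the marked and 79.2% of the unmarked peaks, a difference of 4.44 points (1.14 to 7.89). Some of the peaks lay near starts that the choice did not use. A start of a noncoding or otherwise not protein-coding transcript of a coding gene lay within 1 kb of 84 marked peaks, or 5.41%, against 2.03% of the unmarked ones, and a start of a gene of another type within 1 kb of 55 marked peaks, or 3.54%, against 2.66%.

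The marked intronic peaks were richer in G and C than their surroundings and poor in repeats. The median GC content of the 200 bp was 50% for the marked peaks, 46.0% for the unmarked ones, 50.5% for the marked intergenic peaks and 46.0% for the windows beside. More than 50% of the peak was masked as repeat in 3.02% of the marked and 10.0% of the unmarked intronic peaks.

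Only a small part of the peaks was seen in both Maf samples. Of the 74 peaks of Maf replicate 1, 20 were marked intronic peaks by the same rule, and each of those overlapped a peak of replicate 2. In turn, 21 of 1554 marked intronic peaks, or 1.35% (0.838 to 2.06), overlapped a peak of replicate 1, against 1 of 789 unmarked intronic peaks, or 0.127% (0.00321 to 0.704). For marked intergenic peaks it was 21 of 1117, or 1.88%, and for marked promoter peaks 5 of 969, or 0.516%. The centres of the 21 pairs lay a median of 22.0 bp apart and at most 85 bp. By their order in the replicate 2 list, the 21 lay in Fgf20, Bach2, Mybph, Tmod1, Aunip, Rcsd1, St6galnac4, Ghr, Sirt2, Zhx2, Pitpna, Chd2, Kif6, Pfkfb3, Pkdcc, Vasn, Pex10, Jph1, Limch1, Frs2 and Exd2, where the peak named for Vasn also lies in models of Coro7 and Dnaja3. They stood between positions 7 and 998. The upper part of the list, in which all of them lay, held 682 marked and only 81 unmarked intronic peaks. Whether the shares that overlap replicate 1 differ between marked and unmarked peaks of like list position was not tested. Bach2, Fgf20 and Mybph were at positions 3, 4 and 5 of the list of replicate 1. Of the 21, only the peak in Kif6, a kinesin gene, was marked in 1 H3K27ac replicate alone.

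The first 15 peaks by list position lay in genes of several kinds. The peak at position 2 of the entire list lay in intron 4 of Arid1b at chr17:5189816-5190096, 193395 bp from the nearest protein-coding start, with 1 TGCTGAC in the window. Position 7 lay in intron 1 of Fgf20, a fibroblast growth factor gene, at chr8:40296782-40297062, and held TGCTGAC and an AP-1 site beside the E-box CAGCTG. Position 9 lay in intron 4 of Bach2 at chr4:32531497-32531777. Bach2 is a bZIP repressor that pairs with small Maf proteins. Position 10 lay in intron 13 of Sox6 at chr7:115511924-115512204 and held TGCTGAC 2 times. Sox6 represses genes of slow fibers. Position 15 lay in intron 3 of Jph2 at chr2:163353661-163353941. Position 17 lay in intron 3 of Mybph, a myosin binding protein gene, at chr1:134196039-134196319, 2582 bp from the nearest start. Its 200 bp window held neither TGCTGA nor CAGCTG, although the peak was called in both Maf lists. The entire peak of 281 bp held CAGCTG 2 times, outside that window, and no TGCTGA. Position 24 lay in intron 2 of Slc8a3, which encodes a sodium/calcium exchanger. The others of the first 15 lay in Tacc2, Mast4, Fam69a, Lrrc49, Tmod1, Aunip, Slc45a4 and Rcsd1. All 15 were marked in both H3K27ac replicates. For the peaks in Bach2, Jph2, Tmod1 and Rcsd1 the nearest protein-coding start was that of another gene, namely Gja10, Tox2, Tstd2 and Mpzl1.

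The 1554 peaks lay in 1173 protein-coding genes, or 5.35% of the 21911 gene names of the annotation, and this share is the background for the gene groups below. The share followed gene length. Of 5 classes with equal numbers of genes, the shortest had 0.0456% and the longest, from 58.1 kb on, 17.4%. Among the 12821 genes with H3K27ac within 1 kb of a start it was 8.39%, with 3.23% in the middle and 21.9% in the longest of these classes. A peak in a gene is not shown to act on that gene. Most hosts, 901 of 1173, had 1 peak, and 30 had 4 or more. A Maf peak at a promoter was also present for 141 host genes, or 12.0%, against 4.91% of all genes. That comparison does not hold acetylation of the start equal. Of the 1173 hosts, 1076 had H3K27ac within 1 kb of a start, against 58.5% of all genes. Of the promoter Maf peaks, 95.1% overlapped H3K27ac. The share with a promoter Maf peak among genes with acetylated starts was not computed.

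The genes with the most peaks were long, from 98.9 kb for Ttc7 to 1526 kb for Rbfox1, apart from 3 gene models that run over other genes. Rbfox1 had 8, Sox6 and Gse1 7 each, and Rora, Msi2 and Pde4d 6 each. Rora encodes a nuclear receptor of the clock, Msi2 an RNA-binding protein and Pde4d a cAMP phosphodiesterase. Zbtb20, a transcriptional repressor, had 5, as had Eepd1, Lrrfip1, Myo10, Ppp1r12b and Ttc7. The gene models Gm20388, Fgfr2 and Gm37240 had 13, 11 and 8 by the rule, but these models span 4435, 2961 and 1391 kb. Each of the 11 peaks of Fgfr2 had another, shorter host such as Tacc2 or Fam53b, and none lay in the 104 kb that RefSeq gives to Fgfr2. Of the 13 peaks of Gm20388, 7 were those of Gse1. Of the 7 peaks in Sox6, at positions 10, 605, 713, 1167, 1537, 1871 and 5086, 3 held TGCTGAC and 1 held CAGCTG. Of the 6 in Rora, at positions 152, 558, 1701, 2307, 3487 and 5465, 3 held TGCTGAC and 2 held CAGCTG.

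Genes of the contractile machinery were among the hosts. The share of each list is to be read with the length of its genes, since the genes of 58.1 kb or more hosted at 17.4%, or at 21.9% with an acetylated start. In the list of the fast sarcomere, 6 of 16 genes, or 37.5% (15.2 to 64.6), had a marked intronic peak, with a median span of 16.9 kb. They were Mybph, Mybpc2, Myoz1, Myl1, Mylk2 and Myh1. Mybpc2, the fast isoform of myosin binding protein C, had its peak at position 108, and Myoz1, a calsarcin of the Z-disc, at position 254. Myl1, the essential light chain of fast myosin, had 2 peaks at positions 466 and 640, both in intron 1 and both with a Mef2 site. Of the Z-disc, M-band and giant scaffold genes, 13 of 29, or 44.8% (26.4 to 64.3), were hosts, with 19 peaks and a median span of 70.0 kb. Xirp2, which binds actin at the costamere and intercalated disc, had its peak at position 88. Ttn, which encodes titin, had its peak at position 261 in intron 188 of 312, with 1 TGCTGAC. Palld and Fhod3, which organise actin, had 2 and 4. Of the genes of slow sarcomeres and the slow calcium pump, 1 of 12, or 8.33% (0.211 to 38.5), was a host, namely Mybpc1 at position 4563, and the interval overlapped that of the fast sarcomere. Of the developmental muscle genes 0 of 14 (0 to 23.2%) were hosts, an interval that holds the 5.35% of all genes. The median spans of these lists were 28.1 and 27.8 kb. Acetylated starts were present in 7 of the 12 slow and 6 of the 14 developmental genes, beside 58.5% of all genes.

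Genes of calcium handling and membrane excitability were hosts as well. Of the genes for calcium handling and excitation-contraction coupling, 12 of 35, or 34.3% (19.1 to 52.2), were hosts, with a median span of 58.5 kb. Jph2 had 3 peaks at positions 15, 470 and 2236. Trdn, which encodes triadin, had 2 at positions 53 and 1419, the first with TGCTGAC. Camk2d and Camk2a, kinases activated by calcium and calmodulin, had their highest peaks at positions 359 and 525. Of the sarcolemmal channels and pumps, 12 of 24 were hosts (interval 29.1 to 70.9%), with 17 peaks and a median span of 45.4 kb. After Slc8a3 at position 24 came Abcc8, the sulfonylurea receptor of a potassium channel, at position 267 with TGCTGAC 2 times. Scn4a, the sodium channel of the muscle action potential, had 2 at positions 320 and 2339. The dystrophin complex and membrane repair group had 6 hosts of 26, or 23.1% (8.97 to 43.6), close to the share of long genes, and its median span was 68.4 kb. Among them were Dag1, Dtna and Capn3 at positions 1182, 1605 and 2227. None of its 6 peaks held TGCTGAC.

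Metabolic genes formed another group. Of the glycolysis, glycogen and creatine kinase genes, 13 of 36, or 36.1% (20.8 to 53.8), were hosts, with a median span of 31.1 kb and with 21 peaks of which 7 held TGCTGAC. Pgm1, whose product moves the phosphate of glucose, had 2 peaks at positions 58 and 81 in intron 7. Gbe1, the glycogen branching enzyme, had TGCTGAC 2 times in its peak at position 200. Ampd1 had 3 peaks, the highest at position 203, and Pfkfb3, which makes the activator of phosphofructokinase, had 4, all in intron 1, of which the highest at position 329 was also called in Maf replicate 1. Of the insulin, mTOR and AMP-activated kinase genes, 10 of 30, or 33.3% (17.3 to 52.8), were hosts, each with 1 peak, and the median span was 64.6 kb. The highest were Foxo3 at position 513, Irs2 at 768, Prkaa2 at 952 and Irs1 at 1244. Irs1 and Irs2 are the insulin receptor substrates and Prkaa2 a catalytic subunit of the AMP-activated kinase. Of the genes for fatty acid use and oxidative regulators, 6 of 26, or 23.1% (8.97 to 43.6), were hosts, with Ucp3, a mitochondrial carrier of muscle, the first at position 177, then Pdk2, Esrrg and Ppard. Their median span was 28.2 kb. Of the atrophy and glucocorticoid genes, 6 of 23, or 26.1% (10.2 to 48.4), were hosts, the first being Smad3 at position 192, then Trim54, Cdkn1a and Bmpr1a, and the median span was 20.9 kb.

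Transcription factor genes were hosts at various list positions. Of 42 muscle transcription factors, 14, or 33.3% (19.6 to 49.5), were hosts, with 28 peaks and a median span of 74.1 kb. Beside Sox6 they were led by Hdac4 with 3 peaks, Tbx15 with 1 and Nfib with 4, at best positions 642, 754 and 886. Hdac4 is a class IIa deacetylase that represses Mef2 factors, and Tbx15 a factor of glycolytic fibers. Of 20 clock and PAR bZIP genes, with a median span of 32.7 kb, 5 were hosts, namely Rora, Nr1d2, Nfil3, Rorb and Per2. Of 22 genes of large and small Maf proteins and partner bZIP factors, 1, or 4.55% (0.115 to 22.8), was a host, namely Bach2. Its peaks at positions 9, 3758 and 3759 each held TGCTGAC. The median span of these 22 genes was 10.7 kb. Of 15 acetylcholine receptor and synapse genes, 1, or 6.67% (0.169 to 31.9), was a host, namely Dok7 at position 2259. Their median span was 22.1 kb. The shares of the Maf and synapse lists were near the 5.35% of all genes, which their intervals hold.

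For genes of the other cells of muscle, the intervals held the share of all genes. Of 13 endothelial genes, with a median span of 91.1 kb, 2, or 15.4% (1.92 to 45.4), were hosts, namely Pecam1 at position 1921 and Flt1 at position 5391, each marked in 1 H3K27ac replicate only. None of 12 fibro-adipogenic and tendon genes, 12 macrophage genes and 10 satellite cell genes was a host, and the intervals reached 26.5%, 26.5% and 30.8%. The median spans of these 3 lists were 29.6, 28.7 and 19.7 kb. None of 15 long neuronal genes hosted a marked peak, although 6 of them hosted an unmarked one and their median span was 1135 kb. Only 4 of the 15 had an acetylated start, beside 58.5% of all genes.

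**Figure D5:**
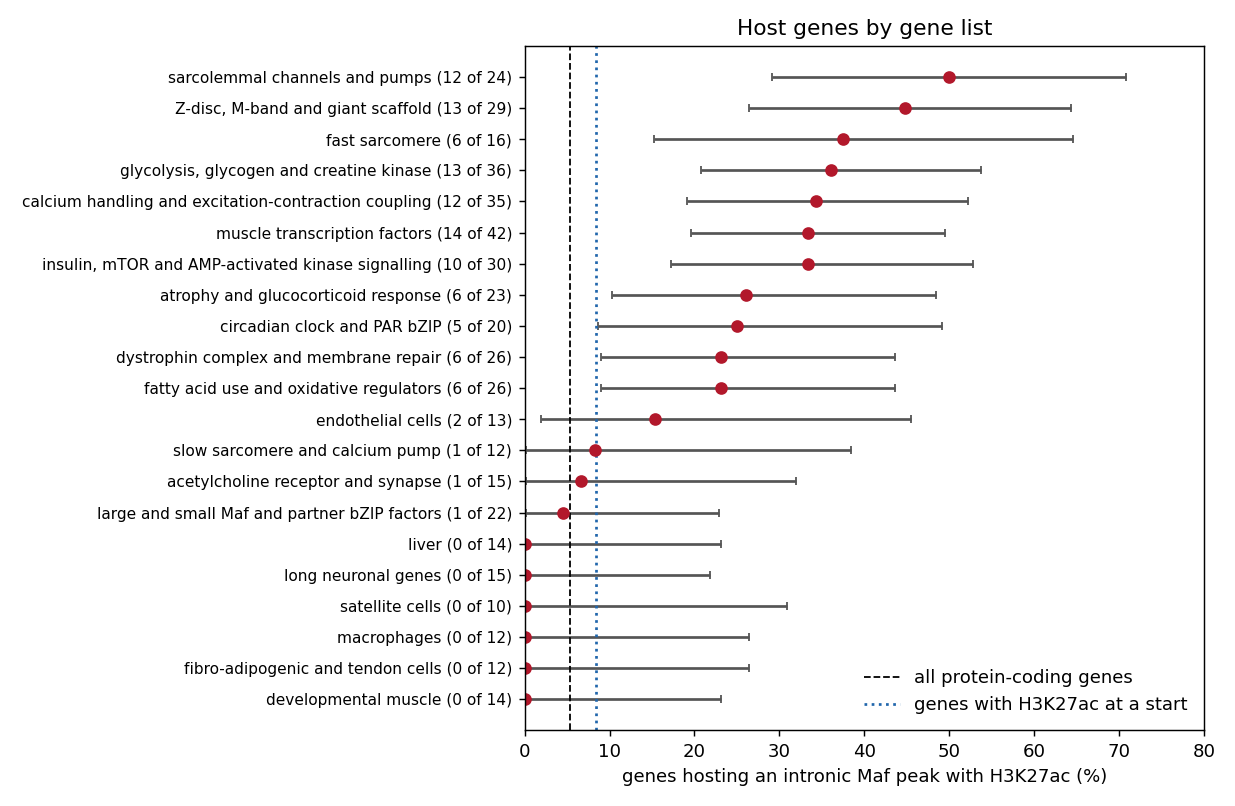
Share of the genes of each list that host an intronic Maf peak with H3K27ac (%, points) with 95% Clopper-Pearson intervals (lines), and the number of hosts of the genes matched. The broken and dotted vertical lines are the share of all protein-coding genes, 5.35%, and of genes with H3K27ac at a start, 8.39%. Channels, Z-disc genes and the fast sarcomere stood highest, and 6 lists had 0 hosts.

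Peaks just inside and just outside the limits show how the choice worked. With regard to the distance of 1 kb, the nearest peaks taken lay 1011 bp from a start in Klf13, 1014 bp in Speg and 1051 bp in Coq7, and the nearest left out lay 993 bp away in Cd276, 993 bp in Sesn3 and 986 bp in Sesn1. With regard to the overlap, the peaks taken with the fewest shared bases were those in Stra6l, with 2 bp, and in Vac14 and Ube3c, with 6 bp each. The unmarked intronic peaks nearest to an H3K27ac region missed it by 4 bp in Sfxn5 and 5 bp in Cmtm8 and Ankrd17. Over all 789 unmarked peaks, the nearest region lay a median of 11451 bp away, and within 1 kb for 83 of them.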

How the data were processed

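Maf and H3K27ac ChIP-seq peak lists (4 lists, 1 for each of 4 samples) were analysed. Per the submitters' processing notes, the tools were bcl2fastq 2.17, FastQC, Bowtie2 2.3.2, Picard 2.10.3 and HOMER, and the builds mm10 and GRCm38. The paper names a false discovery rate for the Maf peaks, but the peak caller and its other settings are not given in the sources used here. The score that the authors deposited is 1 in every row, and the start and end columns, which hold positions in bp, are the only other values used. All regions on the main chromosomes lay within GRCm38 chromosome lengths. From there on, places came from GENCODE M21 (54327 protein-coding transcript starts) and sequences from the RefSeq genome of GRCm38. A host is each protein-coding gene that holds the peak centre. The 1 Maf replicate 2 peak off the main chromosomes was placed nowhere.

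The search of 21 motifs covered the central 200 bp and both strands. No test was run. Shares have Clopper-Pearson and differences Newcombe intervals (Python 3.11.15, SciPy 1.17.1, numpy 2.4.6, pandas 2.3.3). The classes, motif search and intervals were checked on planted data. The 21 gene lists (446 entries, all matched) and the peaks described were chosen with earlier results of these data known. Genes are named by rule: the first 15 peaks, peaks overlapping Maf replicate 1, hosts with the 10 highest counts and ties, in each list the up to 4 hosts standing highest, and the peaks nearest to each limit. The remaining hosts of the fast sarcomere, and Per2, were named beside their counts after their values were seen. H3K27ac replicates, overlap, distance, exon set, window, part of the list and annotation were varied. Some genes and sequences that the rule names are not reported here.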

Additional observations from a re-analysis of the deposited data

How the results depend on the processing

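Of 136 values under other settings, 117 stayed within the interval of the main value or, for counts, within 1.5 times it. When both H3K27ac replicates were required, the marked share of distal intronic Maf peaks was 59.2%, the TGCTGAC difference from unmarked peaks 8.14 points, the share of host genes 4.86% and the median list percentile 35.3. With only 1 H3K27ac replicate used, the marked share was 62.7 to 62.9%. At 2 kb from a start, 5.06% of genes were hosts. In windows of 100 bp, 22.3% of the marked intronic peaks held TGCTGAC, and in the upper, middle and lower of 3 equal parts of the list 34.8%, 24.4% and 17.1% did. The TGCTGAC difference from unmarked intronic peaks was 1.42, 1.09 and 6.90 points in these parts. The CAGCTG difference turned to -10.6 points in the upper part and was 3.17 points in the lower, where that from marked intergenic peaks was -7.59 points. The Mef2 difference from unmarked peaks was 1.47 points in the lower part. The first intron of any transcript held 44.6% of the peaks. The causes were not tested. Choices added after seeing the data (the basic transcripts, with 1625 peaks, the shortest host, leaving out 3 long gene models, and leaving out repeats) moved none of the values they were run on. No paired analysis was possible because the results come from no test and Maf positions from 1 list. Depth is unknown, and with 1 informative Maf list no spread between Maf samples can be given.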

Other observations

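The share of the peaks on chromosome X was near that of the Maf list as a whole. Of the 1554 marked intronic peaks, 17 lay on X, or 1.09% (0.639 to 1.75), against 0.896% of all peaks in the Maf replicate 2 list, 1.70% of the marked intergenic peaks, 1.14% of the marked promoter peaks and 2.65% of all 52531 merged H3K27ac regions. Of the distal intronic H3K27ac regions, 12 of 516 on X held a Maf peak, or 2.33% (1.21 to 4.03), against 1247 of 21815 on the autosomes, or 5.72% (5.41 to 6.03). None of the 789 unmarked intronic peaks lay on X. The ChIP-seq methods of the paper do not give the sex of the mice, so the number of X copies is unknown here. The cause of the difference between X and the autosomes was not tested.

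Glucocorticoid response elements, allowed 1 mismatch, were found in 7.46% (6.21 to 8.89) of the marked intronic peaks, 6.80% (5.40 to 8.44) of the marked intergenic peaks, 4.94% (3.54 to 6.70) of the unmarked intronic ones, 1.96% (1.18 to 3.05) of the marked promoter peaks and 3.19% (2.60 to 3.86) of the windows 1 kb beside. The interval of the difference from the marked intergenic peaks held 0 (-1.37 to 2.60 points). The Runx site TGTGGTT was found in 3.02% (2.23 to 4.00) of the marked intronic peaks, 3.58% (2.57 to 4.84) of the marked intergenic ones and 5.41% (4.64 to 6.26) of the windows beside them.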
